A study of Mus musculus with 6 samples.

Results

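Messenger RNA levels of 36 genes of apolipoproteins and lipoprotein handling were compared between 3 WT and 3 *β-cateninΔ(ex3)/+* mouse livers. The genes were taken by name from a list of apolipoproteins, of lipases and their partners and of proteins that assemble or take up lipoproteins, and all 36 were found among the 31950 genes of the expression table. The sample labels give every mouse the strain C57BL/6 and an age of 8 weeks, with 1 liver per library. In the *β-cateninΔ(ex3)/+* mice 1 allele of *Ctnnb1*, the β-catenin gene, lacks exon 3. The study uses this genotype name for livers in which tamoxifen deleted the exon, in mice that carry *β-catenin lox(ex3)/+* and the *ERT2-Alb-Cre* transgene, whose albumin promoter restricts the Cre recombinase to hepatocytes, and the labelled age is near that of those mice. It also describes an adenovirus with Cre and an *Alb-Cre* transgene, whose mice died within weeks of birth, and does not state by which route the sequenced livers were made. The methods do not say whether the WT mice carried the Cre or were given tamoxifen, and neither they nor the labels give the sex of the mice. Values are FPKM, fragments scaled to transcript length and to the mapped total of a library, so levels of different genes are compared per length. FPKM keep no counts, and the depth was estimated from the steps between low values at 24.4 M to 24.7 M fragments per library in WT and 17.0 M to 19.5 M in *β-cateninΔ(ex3)/+* livers.

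Lipoproteins carry triglyceride and cholesterol through the blood in particles that are coated with apolipoproteins, most of which are made by hepatocytes. The liver builds very low density lipoprotein (VLDL) around apolipoprotein B, and VLDL becomes low density lipoprotein (LDL) as lipases on the vessel wall remove its triglyceride. High density lipoprotein (HDL) forms around apolipoprotein A-I, takes up cholesterol from cells and is remodelled by lipases and by cholesterol-esterifying and transfer enzymes. Receptors on hepatocytes clear the remnants.

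The labels were checked before the comparison. *Ctnnb1* had 25.9, 28.0 and 27.3 FPKM in WT livers and 25.4, 25.2 and 25.04 FPKM in *β-cateninΔ(ex3)/+* livers, and the values per gene do not show the loss of an exon. The β-catenin targets *Glul* (glutamine synthetase) and *Axin2* (a feedback inhibitor of the pathway) were 6.07-fold and 5.91-fold higher in mean FPKM in *β-cateninΔ(ex3)/+* livers. Of 14 such targets with a mean of 0.5 FPKM or more in both groups, 11 rose past the adjusted p given below (background 36.8%). Another 2 fell (background 18.2%), among them *Cyp2e1*, the most abundant, with means of 1672 FPKM in WT and 1422 FPKM in *β-cateninΔ(ex3)/+* livers. *Alb*, the hepatocyte marker albumin, had the highest FPKM of the hepatocyte markers in every liver, with means of 41434 in WT and 24841 in *β-cateninΔ(ex3)/+* livers. The groups also differed in genes of sex and of age. *Xist*, made from the inactive X chromosome, had a mean of 21.2 FPKM in WT and 0.00913 in *β-cateninΔ(ex3)/+* livers, while the Y-linked genes *Ddx3y*, *Eif2s3y*, *Kdm5d* and *Uty* had means of 5.89, 9.51, 0.646 and 0.653 FPKM in *β-cateninΔ(ex3)/+* livers and at most 0.00563 in WT livers. *H19*, *Igf2* and *Afp*, which the liver makes before and shortly after birth, had means of 2353, 829 and 608 FPKM in WT livers, labelled 8 weeks. In *β-cateninΔ(ex3)/+* livers *H19* and *Afp* had means of 0.0260 and 2.55 FPKM, and *Igf2* was listed at 0. Summed FPKM of 14 fetal and neonatal genes were 3959.9, 3985 and 4028 in WT and 9.19, 10.5 and 10.2 in *β-cateninΔ(ex3)/+* livers. Of the male-predominant liver genes 6 had a mean of 0.5 FPKM or more in both groups, and all 6 rose past the thresholds given below (background 7.16% of such genes). Another 5 reached that mean in *β-cateninΔ(ex3)/+* livers alone. Of 9 female-predominant genes that reached it in both groups 6 fell (background 3.45%) and 1 rose. Genotype, sex-linked genes and age-linked genes therefore cannot be told apart in any value below, and fewer cells of a type and less RNA per cell cannot be told apart in whole liver.

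Of the 36 genes, 34 passed a filter of a mean of 0.5 FPKM over the 6 livers, and *Apod* and *Vldlr* did not. Genes were tested with limma on log2(FPKM + 1) over all 13243 genes that passed, and a gene is called differentially expressed here when its Benjamini-Hochberg adjusted p is under 0.05 and it differs at least 2-fold on that scale. By this rule 10 of the 34 genes were differentially expressed, against 12.7% of all genes tested. *Apoc3*, *Apon*, *Apol9a*, *Apol9b* and *Lipg* were the 5 higher in *β-cateninΔ(ex3)/+* livers (background 8.17%), and *Apoa1*, *Apom*, *Lpl*, *Lipc* and *Gpihbp1* were the 5 lower (background 4.52%). *Lipg* passed the filter through the *β-cateninΔ(ex3)/+* livers alone and so had to differ. The other 33 genes reached 0.5 FPKM in both groups, and 4 of them were higher (background 7.16% of such genes) and 5 lower (background 3.45%). With a filter at a mean of 1 FPKM *Lipg* was not tested and 4 were higher, as were 1029 of all 10969 genes then tested. At any fold change, 29 of the 34 passed the adjusted p (background 57%), 12 of them higher (background 37.4%) and 17 lower (background 19.6%). Without *Lipg*, 11 of the 33 genes were higher (background 36.8%) and 17 lower (background 18.2%). In 30 of the 34, *Lipg* among them, the groups did not overlap, against 66% of all genes tested. None of these backgrounds was matched for level, and fold changes on this scale understate those of low genes. At a pseudocount of 0.1, 2705 of all genes tested were called and again 10 of the 34. A mean of at least 20 FPKM was reached by 23 of the 36 genes and by 1854 of all genes. The median log2 fold change was -0.28 over the 34 genes and 0.14 over all genes tested. The median of the 34 rested on single livers, with -0.18 without WT liver 1, -0.14 without WT liver 3 and -0.12 without *β-cateninΔ(ex3)/+* liver 1. Median-ratio scaling of the FPKM lowered the median of all genes by 0.14 and quantile normalization by 0.16, so that the 1082 higher and 598 lower genes of the whole table became 851 and 751 or 797 and 812. For the 34 genes the counts past both thresholds were again 5 higher and 5 lower, the genes past the adjusted p at any fold change fell from 29 to 26 or 27 and the higher ones among them from 12 to 9 under each scaling, and their median was -0.47 with median-ratio scaling and -0.32 with quantile normalization.

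**Figure D1:**
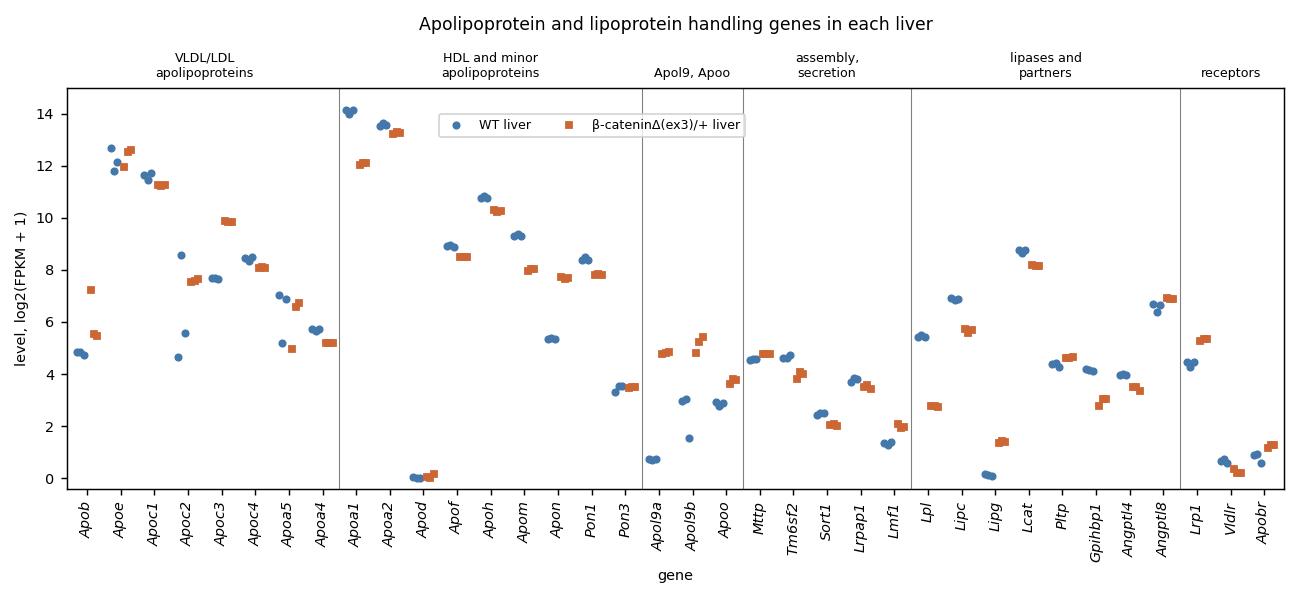
Level of each of the 36 genes in each liver as log2(FPKM + 1), with WT livers as circles and β-cateninΔ(ex3)/+ livers as squares, grouped by role. *Apoa1* and *Apoa2* are the highest in WT livers, *Apod* lies near 0 in all 6 livers, and the livers of 1 group lie close together except for *Apob*, *Apoe*, *Apoc2*, *Apoa5* and *Apol9b*.

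The 36 genes took a large part of the liver's messenger RNA. Their share of all FPKM was 10.1%, 9.05% and 9.66% in WT livers and 5.37%, 5.82% and 5.83% in *β-cateninΔ(ex3)/+* livers. *Apoa1* made up most of this difference, since without it the shares had means of 5.67% ± 0.267 (SD, n = 3) in WT and 4.75% ± 0.250 (SD, n = 3) in *β-cateninΔ(ex3)/+* livers. The order of the most abundant genes by mean FPKM was *Apoa1*, *Apoa2*, *Apoe*, *Apoc1* and *Apoh* in WT livers and *Apoa2*, *Apoe*, *Apoa1*, *Apoc1* and *Apoh* in *β-cateninΔ(ex3)/+* livers. *Apoe* and *Apoa1* were neighbours in the latter order and their livers overlapped, because *Apoe* had 3984 FPKM in *β-cateninΔ(ex3)/+* liver 1, below its 4212 FPKM of *Apoa1*. The other neighbours in both orders did not overlap. In *β-cateninΔ(ex3)/+* livers these 5 genes held 87.5% ± 0.788 (SD, n = 3) of the FPKM of the 36 genes, and in WT livers 92.4% ± 0.748 (SD, n = 3).

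Among the apolipoproteins of HDL, *Apoa1* and *Apom* fell and *Apon* rose past both thresholds. *Apoa1* (ENSMUSG00000032083, chr9:46228580-46230466), the main structural protein of HDL, had 18302, 16112 and 17984 FPKM in WT livers and 4212, 4378 and 4404 FPKM in *β-cateninΔ(ex3)/+* livers. Every WT liver lay above every *β-cateninΔ(ex3)/+* liver, and the WT mean was 4.03 times the other. The log2 fold change of *Apoa1* was -2.01 with a standard error (SE) of 0.052 (adjusted p = 1.06e-06 in limma), and *Apoa1* went from rank 2 to rank 21 among all genes of the table by mean FPKM. *Apoa2*, the second most abundant protein of HDL, changed less. It had 11946, 12765 and 12232 FPKM in WT and 9649, 10194 and 9885 FPKM in *β-cateninΔ(ex3)/+* livers, a log2 fold change of -0.31 (limma adjusted p = 4.21e-04). The ratio of *Apoa1* to *Apoa2* FPKM was 1.53, 1.26 and 1.47 in WT livers and 0.437, 0.429 and 0.446 in *β-cateninΔ(ex3)/+* livers, so the messenger RNA of *Apoa1* exceeded that of *Apoa2* in each WT liver and lay below it in each *β-cateninΔ(ex3)/+* liver.

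*Apom* (ENSMUSG00000024391, chr17:35128997-35132050) encodes the HDL protein that carries sphingosine-1-phosphate. It had 636, 665 and 625 FPKM in WT and 250.5, 262 and 262 FPKM in *β-cateninΔ(ex3)/+* livers, with a log2 fold change of -1.31 (SE 0.035, adjusted p = 1.20e-06 in limma). *Apon* (ENSMUSG00000051716, chr10:128254096-128255896), for apolipoprotein N, went the other way, with 39.7, 40.6 and 39.8 FPKM in WT and 213, 198 and 208 FPKM in *β-cateninΔ(ex3)/+* livers. This was a 5.15-fold higher mean and a log2 fold change of 2.34 (SE 0.038, adjusted p = 1.64e-07 in limma). Its neighbour *Apof*, 12100 bases away on the same strand, encodes apolipoprotein F, also called lipid transfer inhibitor protein, and had 478, 490.1 and 476 FPKM in WT and 358, 363 and 359.7 FPKM in *β-cateninΔ(ex3)/+* livers. The log2 fold change of *Apof* was -0.42 (limma adjusted p = 3.38e-05), so the pair moved in opposite directions and the ratio of *Apof* to *Apon* FPKM went from a mean of 12.0 ± 0.0601 to 1.75 ± 0.0768 (SD, n = 3 each).

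The 200 and 215 bases before the starts of *Apoa1* and *Apon* in the expression table are printed because these genes had, among the abundant apolipoproteins of HDL, the strongest fall and the strongest rise. Both are read 5′ to 3′ on the plus strand of RefSeq on GRCm38.p6, chr9:46228380-46228579 and chr10:128253881-128254095, with no capitals because none of the motifs searched was found in them.
Apoa1: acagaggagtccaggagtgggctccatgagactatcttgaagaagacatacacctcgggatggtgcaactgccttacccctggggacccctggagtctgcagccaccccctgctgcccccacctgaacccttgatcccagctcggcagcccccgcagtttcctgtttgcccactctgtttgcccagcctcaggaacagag
Apon: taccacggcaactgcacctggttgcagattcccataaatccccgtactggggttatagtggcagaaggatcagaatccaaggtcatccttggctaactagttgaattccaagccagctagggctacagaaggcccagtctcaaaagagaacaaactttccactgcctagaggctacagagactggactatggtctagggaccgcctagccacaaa
The *Apoa1* stretch holds 60.5% G and C, and the *Apon* stretch 50.2%.

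The other genes of this group fell by less than 2-fold or did not pass. *Apoh*, which encodes the phospholipid-binding β2-glycoprotein I, had a log2 fold change of -0.53 and *Pon1*, the HDL-borne paraoxonase that hydrolyses lactones and oxidised lipids, had -0.59 (limma adjusted p = 3.27e-05 and 5.67e-05). *Pon1* had 330.4, 358 and 335 FPKM in WT and 225, 230.2 and 221 FPKM in *β-cateninΔ(ex3)/+* livers. Its paralog *Pon3*, 26905 bases away, had 8.96, 10.6 and 10.7 FPKM in WT and 10.1, 10.5 and 10.3 FPKM in *β-cateninΔ(ex3)/+* livers, and the groups overlapped. Its log2 difference was 0.029 with a 95% interval from -0.15 to 0.21 (limma adjusted p = 0.757), and its sign turned under median-ratio scaling, quantile normalization and an equal sum of FPKM. *Apod*, a lipocalin that binds small lipids, had at most 0.129 FPKM in any liver.

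**Figure D2:**
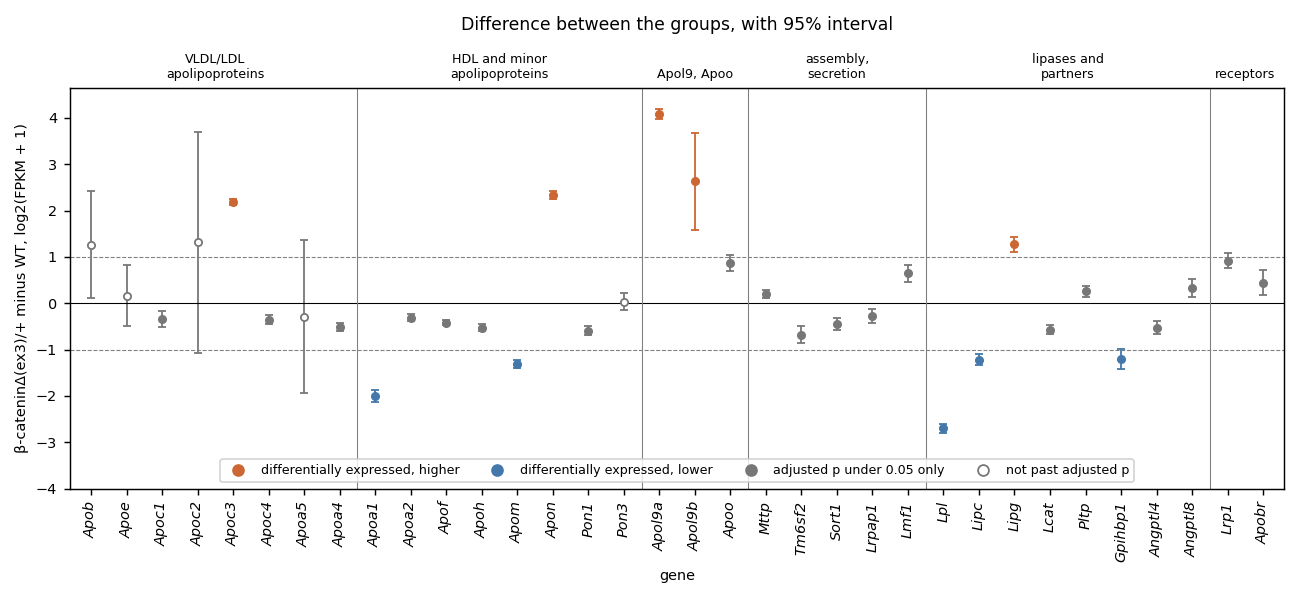
Log2 fold change of the 34 genes tested, *β-cateninΔ(ex3)/+* minus WT on the log2(FPKM + 1) scale, with the 95% interval of the limma fit over 3 livers a group and dashed lines at 2-fold. *Apol9a* at 4.09 and *Lpl* at -2.70 are the extremes, and the widest intervals belong to *Apoc2*, *Apoa5*, *Apob* and *Apol9b*.

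Of 8 apolipoproteins of VLDL, its remnants and LDL, *Apoc3* alone was differentially expressed, a share near the 12.7% of all genes, *Apoc1*, *Apoc4* and *Apoa4* fell by less than 2-fold, and *Apob*, *Apoe*, *Apoc2* and *Apoa5* did not pass the adjusted p. *Apoc3* (ENSMUSG00000032081, chr9:46232933-46235636), which inhibits lipoprotein lipase and slows the uptake of remnants, had 204, 208 and 199.7 FPKM in WT livers and 939.7, 926 and 910.4 FPKM in *β-cateninΔ(ex3)/+* livers. The groups lay far apart relative to their spread, with a log2 fold change of 2.18 (SE 0.028, adjusted p = 6.52e-08 in limma). *Apoc3* is the neighbour of *Apoa1* on chromosome 9, 2466 bases away on the opposite strand, in a cluster of 43340 bases that also holds *Apoa4* and *Apoa5*. The ratio of *Apoa1* to *Apoc3* FPKM was 89.8, 77.5 and 90.1 in WT livers and 4.48, 4.73 and 4.84 in *β-cateninΔ(ex3)/+* livers. *Apoa4*, which is carried on HDL and chylomicrons and in mice is made by both liver and intestine, had 51.8, 49.4 and 51.7 FPKM in WT and 35.4, 35.4 and 35.6 FPKM in *β-cateninΔ(ex3)/+* livers, a log2 fold change of -0.51 (limma adjusted p = 6.69e-05). The enterocyte markers *Fabp6*, *Cdx1*, *Sis* and *Alpi* were at 0 in all 6 livers, and *Fabp2*, the most abundant of the 8, had means of 133 and 20.8 FPKM in WT and *β-cateninΔ(ex3)/+* livers.

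*Apoa5*, which activates triglyceride hydrolysis by lipoprotein lipase, varied within both groups, with 129, 36.0 and 118 FPKM in WT and 29.9, 94.7 and 106 FPKM in *β-cateninΔ(ex3)/+* livers. WT liver 2 and *β-cateninΔ(ex3)/+* liver 1 were the low ones, and the log2 fold change of -0.29 (95% interval -1.94 to 1.36, limma adjusted p = 0.737) became 0.036 without WT liver 1 and 0.28 without *β-cateninΔ(ex3)/+* liver 1. The genes that flank the cluster differed by less than 2-fold, and *Sik3* on the *Apoa1* side had a log2 fold change of 0.38 and *Zpr1* on the *Apoa5* side 0.29 (limma adjusted p = 0.00179 and 0.00972).

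**Figure D3:**
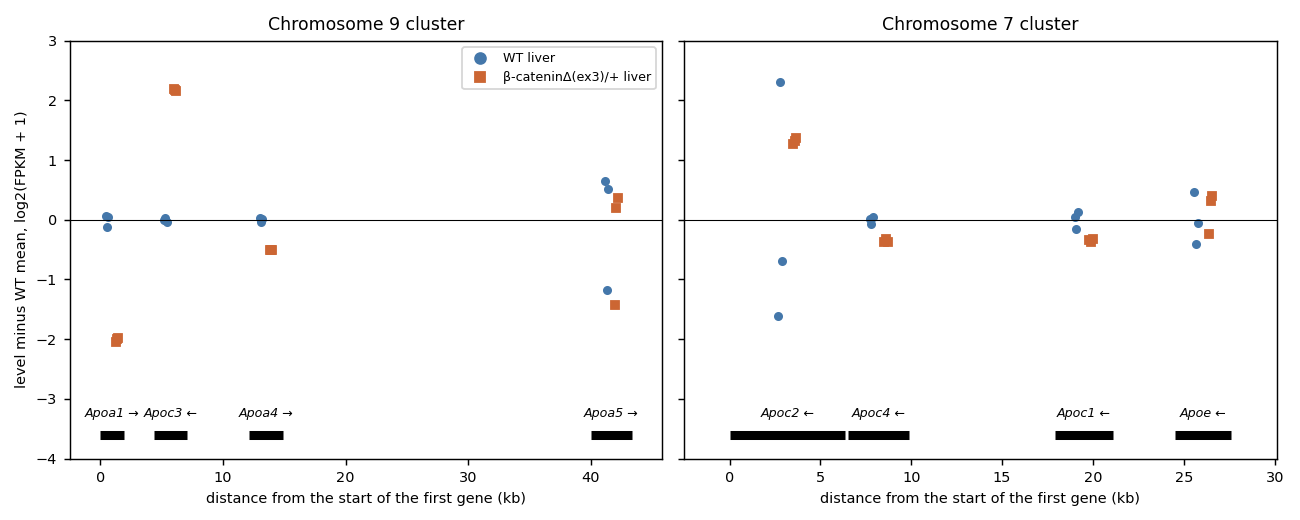
Level of each liver minus the WT mean on the log2(FPKM + 1) scale for the genes of the clusters on chromosomes 9 and 7, against distance from the start of the first gene in kilobases, with bars for the genes and arrows for their strands. *Apoa1* and *Apoc3* lie on opposite sides of 0, *Apoc4* and *Apoc1* lie together below it, and *Apoa5*, *Apoc2* and *Apoe* spread within a group.

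The other cluster, 27610 bases on chromosome 7, holds *Apoc2*, *Apoc4*, *Apoc1* and *Apoe* on 1 strand. *Apoc1*, which activates lecithin cholesterol acyltransferase and inhibits lipoprotein lipase, had 3184, 2769 and 3373 FPKM in WT and 2458, 2394 and 2479 FPKM in *β-cateninΔ(ex3)/+* livers. *Apoc4*, a minor protein of VLDL, had 348, 328 and 357 FPKM in WT and 266, 276 and 266 FPKM in *β-cateninΔ(ex3)/+* livers. Their log2 fold changes were nearly equal, -0.34 and -0.35 (limma adjusted p = 0.00822 and 5.81e-04), and the ratio of *Apoc4* to *Apoc1* FPKM was 0.111 ± 0.00648 in WT and 0.110 ± 0.00429 in *β-cateninΔ(ex3)/+* livers (SD, n = 3 each). *Apoe*, the ligand by which remnants bind their receptors, had 6550.0, 3548 and 4539 FPKM in WT and 3984, 5905 and 6253 FPKM in *β-cateninΔ(ex3)/+* livers. WT liver 1 was the highest and WT liver 2 the lowest of the 6, so the groups overlapped. The log2 fold change of *Apoe* was 0.16 with a 95% interval from -0.50 to 0.82 (limma adjusted p = 0.641), and its sign turned with median-ratio scaling (-0.034), with quantile normalization (-0.019) and without WT liver 2 (-0.047). The flanking genes *Tomm40* and *Clptm1* did not pass the adjusted p, with log2 fold changes of 0.11 and 0.50 (limma adjusted p = 0.436 and 0.150).

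*Apoc2*, the activator of lipoprotein lipase, could not be read by itself. It had 24.3, 384 and 47.0 FPKM in WT livers and 185, 192 and 199.9 FPKM in *β-cateninΔ(ex3)/+* livers. WT liver 2 was above, and WT livers 1 and 3 were below, all *β-cateninΔ(ex3)/+* livers. The annotation has a second gene at this place, *Gm44805* (chr7:19671584-19681423), whose exons all lie in those of *Apoc2* and *Apoc4* and which shares 79.5% of the 813 exon bases of *Apoc2*. *Gm44805* had 243, 9.02 and 217 FPKM in WT and 7.70, 8.93 and 7.73 FPKM in *β-cateninΔ(ex3)/+* livers, so it was high where *Apoc2* was low. Summed over both genes the values were 267, 393 and 264 FPKM in WT and 193, 201 and 208 FPKM in *β-cateninΔ(ex3)/+* livers, and every WT liver lay above every *β-cateninΔ(ex3)/+* liver. The log2 fold change was 1.32 for *Apoc2* alone (limma adjusted p = 0.289) and -0.59 for the sum (95% interval -0.98 to -0.21, limma adjusted p = 0.0197), a sum that was chosen after the values were seen. Reads of *Apoc2* and *Gm44805* cannot be told apart over the shared exons.

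*Apob* (ENSMUSG00000020609, chr12:7977648-8016835), the structural protein of VLDL and LDL, had 27.6, 27.7 and 25.9 FPKM in WT and 149, 45.4 and 43.3 FPKM in *β-cateninΔ(ex3)/+* livers. Every *β-cateninΔ(ex3)/+* liver was above every WT liver, but liver 1 stood apart from livers 2 and 3. The log2 fold change was 1.27 (SE 0.47, 95% interval 0.11 to 2.43, adjusted p = 0.0625 in limma). Single livers decided the call at any fold change, since without *β-cateninΔ(ex3)/+* liver 1 the value was smaller and passed (0.69, SE 0.052, adjusted p = 4.73e-04 in limma), and without liver 3 it also passed (1.57, adjusted p = 0.0487 in limma). The same livers stood apart for several genes. *β-cateninΔ(ex3)/+* liver 1 did so for *Apob*, WT liver 2 for *Apoc2* and both of them for *Apoa5*. Both were also the lowest of their group for *Apoe* (3548 FPKM in WT liver 2 and 3984 FPKM in *β-cateninΔ(ex3)/+* liver 1). For *Apol9b* it was WT liver 3 that was low. Of 23 of the 36 genes with a mean of at least 20 FPKM, *Apoe*, *Apoc2*, *Apoa5* and *Apol9b* had a coefficient of variation above 25% in WT livers and *Apob* and *Apoa5* in *β-cateninΔ(ex3)/+* livers, as did 5.77% and 5.45% of all 1854 genes at that level. The median coefficient of variation of the 23 genes was 4.21% in WT and 2.28% in *β-cateninΔ(ex3)/+* livers. The cause of the spread was not tested.

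**Figure D4:**
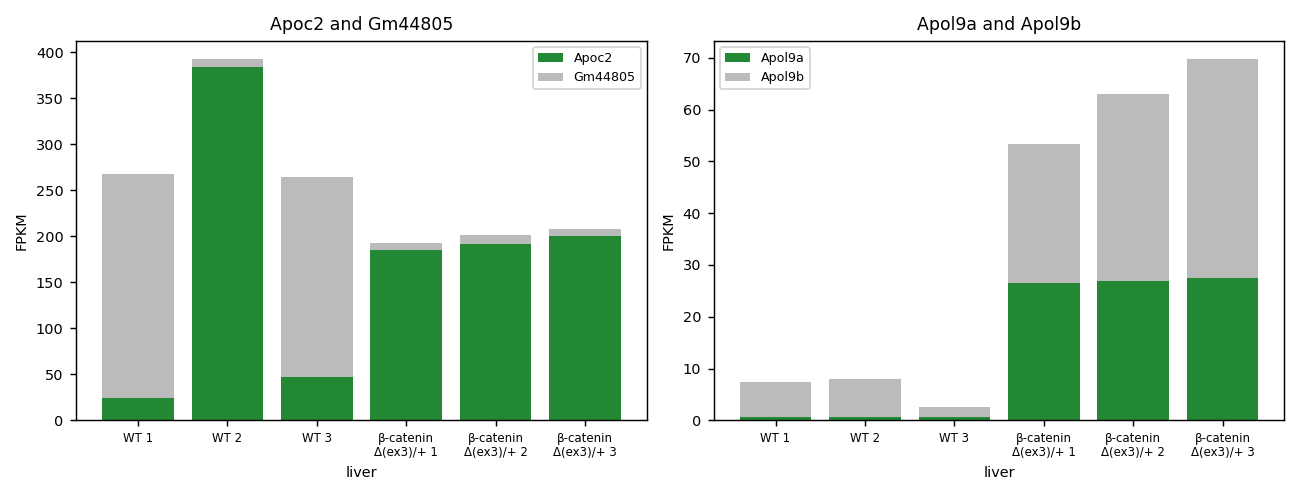
FPKM in each liver for *Apoc2* stacked with *Gm44805*, and for *Apol9a* stacked with *Apol9b*; bars start at 0. *Gm44805* takes 90.9% and 82.2% of the first sum in WT livers 1 and 3 and at most 4.45% in the other livers, and the second sum is at most 7.88 in WT and at least 53.3 in *β-cateninΔ(ex3)/+* livers.

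The highest fold change of the 36 genes was that of *Apol9a*, and its near copy *Apol9b* rose with it. Apolipoproteins L are mostly intracellular lipid-binding proteins, and mouse *Apol9a* and *Apol9b* are induced by interferon. *Apol9a* (ENSMUSG00000057346, chr15:77403789-77411135) had 0.657, 0.624 and 0.651 FPKM in WT and 26.5, 26.8 and 27.5 FPKM in *β-cateninΔ(ex3)/+* livers, a 41.8-fold higher mean and a log2 fold change of 4.09 (SE 0.044, adjusted p = 4.11e-08 in limma). *Apol9b* (ENSMUSG00000068246, chr15:77729039-77736382) had 6.80, 7.26 and 1.93 FPKM in WT and 26.7, 36.2 and 42.3 FPKM in *β-cateninΔ(ex3)/+* livers, with a log2 fold change of 2.63 (SE 0.43, adjusted p = 0.00279 in limma). WT liver 3 was the lowest for *Apol9b* and not for *Apol9a*. The 2 genes lie 317903 bases apart on opposite strands, and the GENCODE transcripts Apol9a-201 and Apol9b-201 were identical at 98.4% of 1475 aligned bases, so reads can be split between them. The sum of both was 7.46, 7.88 and 2.58 FPKM in WT and 53.3, 63.1 and 69.8 FPKM in *β-cateninΔ(ex3)/+* livers, with a log2 fold change of 3.28 (95% interval 2.39 to 4.17, limma adjusted p = 5.21e-04), a sum also chosen after the values were seen.

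The likeness extends upstream of the genes, and the stretches are printed to show it. They are RefSeq sequence on GRCm38.p6, chr15:77411130-77411330 on the minus strand for *Apol9a* and chr15:77728822-77729044 on the plus strand for *Apol9b*, read 5′ to 3′ towards the gene. Capitals mark the letters TTCAGTTTC, which on the other strand read GAAACTGAA and form part of the interferon-stimulated response element.
Apol9a: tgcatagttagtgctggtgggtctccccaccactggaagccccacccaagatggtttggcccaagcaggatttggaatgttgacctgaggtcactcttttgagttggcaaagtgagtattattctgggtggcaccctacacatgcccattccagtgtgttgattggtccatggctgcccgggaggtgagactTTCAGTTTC
Apol9b: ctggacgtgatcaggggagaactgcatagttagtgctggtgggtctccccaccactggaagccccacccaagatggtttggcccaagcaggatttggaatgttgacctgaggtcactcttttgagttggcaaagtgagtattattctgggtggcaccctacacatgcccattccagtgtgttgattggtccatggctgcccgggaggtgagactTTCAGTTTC
In both genes these letters begin 3 bases before the start of the gene in the expression table, and their last 6 bases lie in the first exon. The RefSeq promoters, which run from 250 bases before to 50 after the start, share a run of 278 identical bases. The motif was chosen after the sequences were seen and was searched on both strands. Of the 27 genes with a RefSeq promoter, *Apol9a* and *Apol9b* alone held it, and 0.627% of all 32851 promoters did. The core motif CTTTGAT of the TCF/LEF factors that bind β-catenin was in 0 of the 27 and in 3.73% of all promoters, and the motif CAAAGTCCA of HNF4 was in 0 of the 27 and in 0.475% of all. The absence of these letters says nothing about binding of the factors elsewhere or to other letters.

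*Apoo*, a subunit of the mitochondrial complex that shapes the inner membrane, had 6.56, 5.86 and 6.32 FPKM in WT and 11.2, 13.0 and 12.7 FPKM in *β-cateninΔ(ex3)/+* livers. It rose with a log2 fold change of 0.87 (limma adjusted p = 1.36e-04), below 2-fold on that scale.

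Of 5 genes of particle assembly and secretion none was differentially expressed (background 12.7%), and all 5 passed the adjusted p in limma at smaller changes (background 57%). *Mttp*, the transfer protein that loads lipid onto apolipoprotein B, had 22.5, 23.0 and 22.7 FPKM in WT and 26.2, 26.1 and 26.5 FPKM in *β-cateninΔ(ex3)/+* livers. Its log2 fold change of 0.20 (limma adjusted p = 0.00328) became 0.015 when FPKM were scaled by median ratios and -0.10 when quantile normalized, and passed under neither (limma adjusted p = 0.746 and 0.0569). *Tm6sf2*, which takes part in the lipidation of VLDL, fell from 23.4, 23.5 and 25.4 FPKM to 13.2, 15.7 and 15.2 FPKM, a log2 fold change of -0.68 (limma adjusted p = 5.02e-04). *Sort1*, a sorting receptor that binds apolipoprotein B, had a log2 fold change of -0.45, and *Lrpap1*, the chaperone of *Lrp1* and related receptors, -0.27 (limma adjusted p = 7.29e-04 and 0.0103). *Lmf1*, which lipases need to fold in the endoplasmic reticulum, rose from a mean of 1.53 ± 0.117 to 2.96 ± 0.257 FPKM (SD, n = 3 each), with a log2 fold change of 0.64 (limma adjusted p = 5.66e-04).

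*Lpl* and *Lipc* fell, as did *Gpihbp1*. *Lpl* (ENSMUSG00000015568, chr8:68880491-68906934), lipoprotein lipase, had 42.5, 43.7 and 41.9 FPKM in WT and 5.76, 5.81 and 5.60 FPKM in *β-cateninΔ(ex3)/+* livers. The WT mean was 7.46 times the other, and the log2 fold change of -2.70 (SE 0.040, adjusted p = 1.13e-07 in limma) was the strongest decrease among the 34 genes tested. *Gpihbp1* (ENSMUSG00000022579, chr15:75596628-75598213), the protein that holds lipoprotein lipase on capillary endothelium, had 17.4, 16.8 and 16.3 FPKM in WT and 5.79, 7.28 and 7.33 FPKM in *β-cateninΔ(ex3)/+* livers, a log2 fold change of -1.20 (SE 0.090, adjusted p = 9.70e-05 in limma). *Lipc* (ENSMUSG00000032207, chr9:70798128-70952226), hepatic lipase, had 119, 115 and 117 FPKM in WT and 52.0, 46.5 and 50.6 FPKM in *β-cateninΔ(ex3)/+* livers, with a log2 fold change of -1.22 (SE 0.049, adjusted p = 6.87e-06 in limma). The ratio of *Lipc* to *Lpl* FPKM rose from 2.74 ± 0.104 to 8.69 ± 0.597 (SD, n = 3 each).

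*Lipg* (ENSMUSG00000053846, chr18:74939322-74961263), endothelial lipase, which acts on HDL phospholipids, was the lipase with higher values in *β-cateninΔ(ex3)/+* livers. It had 0.128, 0.0819 and 0.0518 FPKM in WT and 1.53, 1.71 and 1.61 FPKM in *β-cateninΔ(ex3)/+* livers, a log2 fold change of 1.27 (SE 0.063), and since it passed the filter through its high group alone, its call carries no weight as a test. *Lipg* stayed the least abundant of the 3 lipases in both groups.

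Cells other than hepatocytes make some of these transcripts, and markers of several of them moved with the groups. Counts here are of markers with a mean of 0.5 FPKM or more in both groups, since a marker that reached it in 1 group alone had to differ, and the backgrounds at the adjusted p are 36.8% higher and 18.2% lower over the 11864 genes of that kind. Of 11 such endothelial markers all 11 fell, 2 of them past 2-fold, and the summed FPKM of the whole list were 113, 114 and 116 in WT and 74.4, 73.5 and 76.4 in *β-cateninΔ(ex3)/+* livers, with *Clec4g* the most abundant. Of 12 macrophage and Kupffer cell markers 10 rose and 1 fell, with sums of 486, 475 and 493 FPKM in WT and 1096, 1085 and 1090.0 FPKM in *β-cateninΔ(ex3)/+* livers, led by *C1qb* and *C1qa*. Of 6 adipocyte markers 1 reached the filter in both groups and rose, and 4 reached it in *β-cateninΔ(ex3)/+* livers alone, with sums of 7.97, 7.97 and 7.49 FPKM in WT and 78.2, 74.0 and 75.6 FPKM in *β-cateninΔ(ex3)/+* livers. Most of the adipocyte sum in *β-cateninΔ(ex3)/+* livers was *Cfd* (mean 51.7 FPKM), and *Retn* was at 0 in WT livers. All 10 such stellate cell markers of 11 listed fell, with sums of 141, 143 and 142 FPKM in WT and 48.3, 43.6 and 51.7 FPKM in *β-cateninΔ(ex3)/+* livers, led by *Colec11*. Of these, 5 of 6 erythroid, 6 of 7 neutrophil, 2 of 4 lymphocyte and 1 of 3 cholangiocyte markers fell and 1 neutrophil (*Prtn3*) and 1 lymphocyte marker (*Nkg7*) rose, with mean sums of 3522, 371, 29.0 and 42.4 FPKM in WT and 1839, 52.9, 12.1 and 19.2 FPKM in *β-cateninΔ(ex3)/+* livers. The lymphocyte markers that fell were the B cell genes *Cd79a* and *Cd79b*, with means of 10.4 and 10.7 FPKM in WT and 1.48 and 1.63 FPKM in *β-cateninΔ(ex3)/+* livers. Of the 9 hepatocyte markers 2 rose and 5 fell. Their mean sums were 72907 FPKM in WT and 37147 FPKM in *β-cateninΔ(ex3)/+* livers, led by *Alb*. For the 36 genes the mean sums were 42747 FPKM in WT and 26599 FPKM in *β-cateninΔ(ex3)/+* livers. Of 10 housekeeping genes 5 rose, a share not far from the background, and none fell. The part of these cells in the values of *Lpl*, *Gpihbp1*, *Lipg* or any other gene here was not tested.

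*Lcat*, which esterifies the cholesterol of HDL, fell from 438, 406 and 436 FPKM to 293, 281 and 286 FPKM, a log2 fold change of -0.57 (limma adjusted p = 6.28e-05). *Pltp*, the phospholipid transfer protein, had 19.9, 20.4 and 18.5 FPKM in WT and 23.5, 23.3 and 23.9 FPKM in *β-cateninΔ(ex3)/+* livers, and its log2 fold change of 0.26 (limma adjusted p = 0.00470) became 0.071 when FPKM were scaled by median ratios and -0.047 when quantile normalized, and passed under neither (limma adjusted p = 0.280 and 0.514). *Angptl4*, an inhibitor of lipoprotein lipase, had a log2 fold change of -0.53, and *Angptl8*, which directs such inhibition after feeding, 0.33 (limma adjusted p = 5.89e-04 and 0.0140). *Angptl8* had 101, 82.8 and 99.6 FPKM in WT and 121, 117 and 118 FPKM in *β-cateninΔ(ex3)/+* livers, so the groups did not overlap but WT liver 2 was low, and its log2 fold change did not pass after median-ratio scaling (0.14, limma adjusted p = 0.176) or quantile normalization (0.13, limma adjusted p = 0.153).

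Of the receptors, *Lrp1*, a receptor that takes up remnants, had 21.3, 18.2 and 21.2 FPKM in WT and 37.9, 39.2 and 40.1 FPKM in *β-cateninΔ(ex3)/+* livers. It rose 1.93-fold in mean FPKM, with a log2 fold change of 0.92 (SE 0.069, adjusted p = 9.56e-05 in limma). *Apobr*, a receptor of macrophages for apolipoprotein B48, rose from a mean of 0.741 ± 0.217 to 1.36 ± 0.119 FPKM (SD, n = 3 each, log2 fold change 0.44, limma adjusted p = 0.0145). Of the 12 macrophage markers 10 rose and 1 fell, and the part of these cells in the value of *Apobr* was not tested. *Vldlr*, the VLDL receptor, had 0.595, 0.646 and 0.506 FPKM in WT and 0.292, 0.159 and 0.138 FPKM in *β-cateninΔ(ex3)/+* livers, and every *β-cateninΔ(ex3)/+* liver lay below every WT liver. It was under the filter, and without a filter its log2 fold change was -0.40 (limma adjusted p = 0.00732).

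The rest of the pathway was read from a list of 46 other genes, of which 43 were tested. The list was chosen with earlier results of these data known, so its counts are a description. Of these 10 were differentially expressed, 5 higher and 5 lower, against the backgrounds of 8.17% and 4.52%. *Saa2* reached the filter through the *β-cateninΔ(ex3)/+* livers alone and had to differ, and without it 4 of 42 were higher (background 7.16%). The median log2 fold change of the 43 was 0.21 beside 0.14 over all genes. The serum amyloid A genes *Saa1*, *Saa2* and *Saa4*, whose acute phase and constitutive proteins ride on HDL, had means of 1.35, 0.417 and 53.9 FPKM in WT and 259, 92.5 and 278 FPKM in *β-cateninΔ(ex3)/+* livers. The log2 fold changes of *Saa1* and *Saa4* were 6.79 and 2.34 (limma adjusted p = 3.96e-08 and 5.57e-08), and that of *Saa2*, given as a description, was 6.05. *Saa1* and *Saa2* are near copies, and reads can be split between them. The lipid droplet gene *Cidec* and the carboxylesterase *Ces1g* were the other higher genes, with log2 fold changes of 1.17 and 1.08, and *Ces1g* was under 2-fold with median-ratio scaling (0.89) and quantile normalization (0.84).

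**Figure D5:**
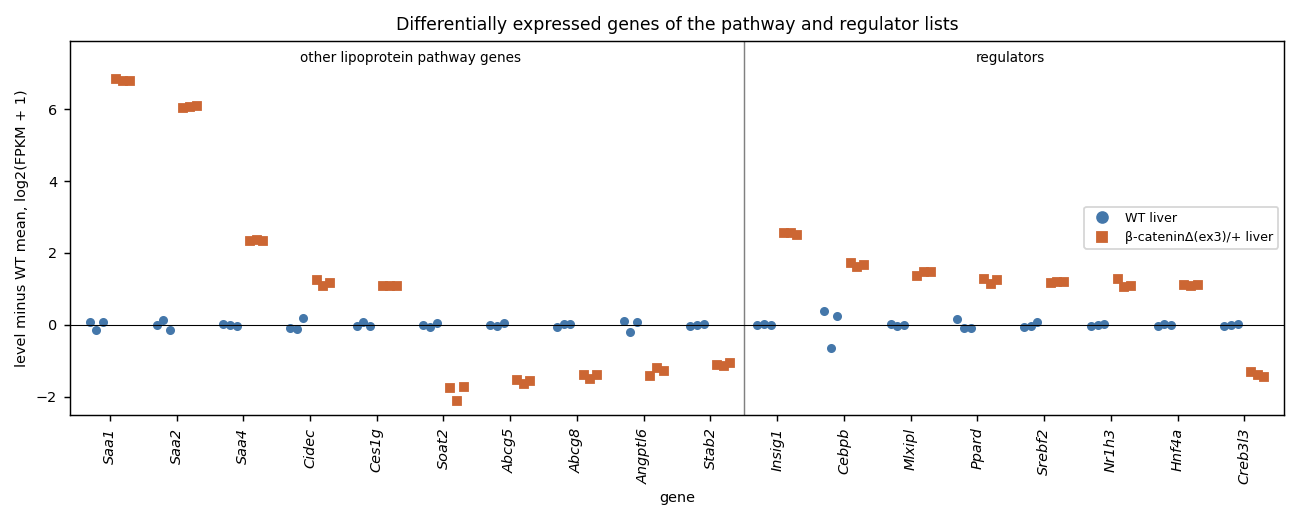
Level of each liver minus the WT mean on the log2(FPKM + 1) scale for the 10 pathway genes and 8 regulators that were differentially expressed, with WT livers as circles and β-cateninΔ(ex3)/+ livers as squares. *Saa1* and *Saa2* lie highest, *Soat2* lies lowest, and *Creb3l3* is the 1 regulator below 0.

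The 5 lower genes of this list were *Abcg5*, *Abcg8*, *Soat2*, *Angptl6* and *Stab2*. *Abcg5* and *Abcg8*, which together form the transporter that exports sterols into bile, had means of 43.7 ± 1.24 and 17.6 ± 0.706 FPKM in WT and 14.0 ± 0.627 and 5.87 ± 0.252 FPKM in *β-cateninΔ(ex3)/+* livers (SD, n = 3 each). Their log2 fold changes were -1.57 and -1.43 (limma adjusted p = 2.04e-06 and 4.62e-06). *Soat2*, which esterifies cholesterol for VLDL, had 30.6, 29.1 and 31.7 FPKM in WT and 8.28, 6.19 and 8.46 FPKM in *β-cateninΔ(ex3)/+* livers, a log2 fold change of -1.87 (limma adjusted p = 3.92e-05). The angiopoietin-like gene *Angptl6* had -1.30 and *Stab2*, a scavenger receptor of sinusoidal endothelium, -1.10.

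Of 40 regulators of lipoprotein genes, a list chosen in the same way, 38 were tested. Of these, 7 were higher (background 8.17%) and 1 lower (background 4.52%) past both thresholds. *Ppard* reached the filter through the *β-cateninΔ(ex3)/+* livers alone and had to differ, and without it 6 of 37 were higher (background 7.16%). *Insig1*, which retains the SREBP activator in the endoplasmic reticulum, rose from 12.5, 12.7 and 12.4 FPKM to 79.0, 78.5 and 75.5 FPKM, and *Srebf2*, which drives genes of cholesterol synthesis, from 5.93, 6.00 and 6.61 FPKM to 15.2, 15.4 and 15.4 FPKM. *Hnf4a*, the nuclear receptor of many apolipoprotein genes, had 56.7, 58.6 and 57.6 FPKM in WT and 125, 124 and 126 FPKM in *β-cateninΔ(ex3)/+* livers, a log2 fold change of 1.10 (limma adjusted p = 1.24e-06) that median-ratio scaling lowered to 0.91 and quantile normalization to 0.86. *Mlxipl* (1.43), *Cebpb* (1.67), *Ppard* (1.23) and *Nr1h3* (1.14) were the other higher genes by log2 fold change. *Hnf4a* and *Nr1h3* were under 2-fold with both scalings (*Nr1h3* 0.95 and 0.87) and *Srebf2* with quantile normalization (0.92). *Creb3l3*, a factor of the liver that activates genes of triglyceride clearance, had 107, 108 and 112 FPKM in WT and 43.0, 40.8 and 39.4 FPKM in *β-cateninΔ(ex3)/+* livers, a log2 fold change of -1.39 (limma adjusted p = 2.42e-06). Of 16 other genes with apolipoprotein in their names 10 were tested, and 2 were differentially expressed, both higher (background 8.17%). Of the 7 with a mean of 0.5 FPKM or more in both groups 1 was higher (background 7.16%). *Apol7a* had a log2 fold change of 1.11, and *Apol10b*, which reached the filter through the *β-cateninΔ(ex3)/+* livers alone and had to differ, had means of 0.0117 FPKM in WT and 1.35 FPKM in *β-cateninΔ(ex3)/+* livers.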

How the data were processed

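RNA-seq of 3 WT and 3 *β-cateninΔ(ex3)/+* livers was analysed. Per the labels, polyadenylated RNA was sequenced as paired reads of 150 bases, and the submitters' processing notes name cutadapt 1.9, HISAT2 2.0.4, StringTie 1.3.4d, DESeq2 and edgeR, without roles. The build is not given in the sources used here; 31 of the 36 genes have the same start, end and strand in GENCODE M21 (GRCm38). The authors deposited 1 FPKM value for each gene in each liver, and 0 columns of the table were left unused.

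The 13243 genes whose mean reached 0.5 FPKM were modelled as log2(FPKM + 1) in R 4.3.3 with limma 3.58.1, using an intensity trend in eBayes, with Benjamini-Hochberg adjustment over all of them; thresholds follow the study's methods, whose count test cannot be run on FPKM. The fit was tested on simulated data. Fold changes on this scale understate those of low genes. With 3 livers against 3, a two-sided exact permutation test cannot go below p = 0.1, so only overlap is given. Nothing states separate cultures or litters, so p-values measure the spread between these livers. Variances between replicates were 1.98 to 4.42 times the estimated counting noise, and all were kept as separate samples. The pairs with WT liver 2 had the highest values, 4.42 with liver 1 and 4.24 with liver 3, against 1.98 for WT livers 1 and 3. Between *β-cateninΔ(ex3)/+* livers they were 2.28 to 2.35. Depths are estimates from 8588 single-exon genes, in which 20.4% to 28.4% of low values lay on steps against 4% by chance. Promoters are from RefSeq on GRCm38.p6, and Biopython 1.88, pandas 2.3.3, numpy 2.4.6 and matplotlib 3.10.9 in Python 3.11.15 were used.

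The 36 genes and all lists were chosen with earlier results of these data known, so their counts beside the backgrounds are a description and no test. Named were all 36 genes, the differentially expressed genes of the pathway and regulator lists, the neighbours of the chromosome 7 and 9 clusters and the genes that check the labels; of other lists, counts, sums and leading genes. *Gm44805*, *Apol7a*, *Apol10b*, *Retn*, *Cd79a* and the enterocyte markers at 0 (*Fabp6*, *Cdx1*, *Sis* and *Alpi*) were named after their values were seen. Some further genes of the pathway list are not reported here and were left out of its counts.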

Additional observations from a re-analysis of the deposited data

How the results depend on the processing

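The number of differentially expressed genes was 1680 and became 2705 at a pseudocount of 0.1 and 759 at an absolute log2 fold change of at least 1.5. At that fold change, 6 of the 34 genes were called, 2 of them lower, and 5 of the pathway list. Leaving out 1 liver at a time, the total ranged from 1642 to 1703, the called genes of the 34 from 10 to 11 and those of the pathway list from 10 to 10. *Apob* passed the adjusted p without *β-cateninΔ(ex3)/+* liver 1 (0.69, limma adjusted p = 4.73e-04) or liver 3 (1.57, limma adjusted p = 0.0487) and *Apoc2* without WT liver 2 (2.47, limma adjusted p = 0.00152). The sign turned for *Apoe* after median-ratio scaling (-0.034), quantile normalization (-0.019) and without WT liver 2, for *Pon3* after median-ratio scaling (-0.15), quantile normalization (-0.24, limma adjusted p = 0.0400), an equal sum of FPKM (-0.036) and without WT liver 1, and after quantile normalization for *Mttp* (-0.10) and *Pltp* (-0.047). With *Gm44805* added, *Apoc2* became -0.59. For livers left out, *Apoe* ranged from -0.047 to 0.40, *Pon3* from -0.047 to 0.072, *Apoa5* from -0.87 to 0.28, *Apoc2* from 0.51 to 2.47 and *Apob* from 0.69 to 1.57. The cause was not tested. The sums with *Gm44805* and of the *Apol9* pair are left out of the next counts. Of 884 values under alternatives for 59 genes, 863 kept their direction and their call by both thresholds together. Another 11 turned, 7 lost and 3 gained the call. Some values that kept the call still crossed the adjusted p alone. Among the 34 genes these were *Mttp* and *Pltp* after median-ratio scaling, *Angptl8* after median-ratio scaling or quantile normalization, and *Apob* without *β-cateninΔ(ex3)/+* liver 1. *Ces1g*, *Hnf4a*, *Nr1h3* and *Srebf2* lost the 2-fold mark under 1 or 2 of the scalings. Livers with the same number did not deviate together (correlations 0.0268, 0.0213 and -0.0054), and with the replicate block 1673 genes and 10 of the 34 were called. Without counts, precision at low FPKM, as for *Lipg*, *Apobr* and *Vldlr*, cannot be given.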
